A study of Homo sapiens with 2 samples.

Results

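The 4 genes HNRNPH1, HNRNPH2, HNRNPH3 and HNRNPF encode the hnRNP H and F splicing factors, and they are described here by the C-to-U edits listed in their own mRNAs. They were chosen from the earlier known numbers of edit sites per gene in the same 2 libraries, so those numbers are given as a description. A locus of the long-read isoform models took the symbol of the GENCODE gene on its strand whose exons it overlapped most, which gave 1 locus for each of the 4 genes, out of 12178 genes with a listed site. The 4 loci held 207 of the 213041 listed positions, 156 of them RBFOX2 sites and 76 enzyme-only sites, 25 counted in both. In the study, fixed cells were incubated with APOBEC1, a cytidine deaminase, fused to a nanobody that binds rabbit IgG (INSCRIBE, called in situ STAMP in the labels), and whole cDNA molecules were then read by PacBio sequencing. An antibody against RBFOX2, a splicing regulator that binds UGCAUG, placed the deaminase next to RBFOX2 in the RBFOX2 library, whereas the enzyme-only library received the fusion without that antibody and measures background conversion. Both libraries came from a human embryonic kidney line, HEK293T in the study and HEK293XT in the labels, fixed with methanol. There was 1 library per group, so each difference below is between 2 libraries and has no replicate check, and no p-value was computed.

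hnRNP H and F proteins bind runs of G through a variant type of RNA recognition motif and change the choice of exons and of polyadenylation sites. HNRNPH1 is a subunit of the large assembly of splicing regulators (LASR) that RBFOX proteins join in the nucleus, and HNRNPH2 is its X-linked close copy. HNRNPF prefers the same G-rich sequences, and HNRNPH3 is a shorter relative. The edits measured here lie in the mRNAs of these factors and say nothing of the proteins themselves.

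The 2 mRNAs of the family that hold the RBFOX2 hexamer in a 3'UTR are shown first, because they are where the members' sites can be set against the motif of the antibody's target. Each line gives 30 bases, 5' to 3', with the hexamer in capitals (hg38; the motif lies on the minus strand at chr5:179614490-179614495 in HNRNPH1 and on the plus strand at chrX:101413810-101413815 in HNRNPH2).

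HNRNPH1, hexamer 466 nt past the stop codon: cactgttttggaTGCATGttgaaagacatg

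HNRNPH2, hexamer 473 nt past the stop codon: gaaaacttcggaTGCATGttgagaaacatg

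The 2 stretches were identical at 22 of 30 bases. No UGCAUG lay in an exon of the isoform models of HNRNPH3 or HNRNPF, and HNRNPH1 had 3 in all, of which only the 3'UTR copy lay in the MANE mRNA, the reference transcript of each gene used here.

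HNRNPH3 carried the densest editing of the RBFOX2 library relative to the enzyme-only library, HNRNPH1 and HNRNPH2 lay between, and HNRNPF had the same number of sites in both. Sites listed in both libraries were set aside. The study removed, as putative SNPs, edits found in all replicates and samples, so with 1 library per group the step taken here removes more. It left 131 RBFOX2 sites and 51 enzyme-only sites in the 4 genes. HNRNPH3 (chr10:68331607-68343194, plus strand, 595 reads with RBFOX2 targeting and 532 with the enzyme alone) had 50 and 8 such sites. HNRNPH2 (chrX:101408226-101414127, plus strand, 418 and 318 reads) had 54 and 26. HNRNPH1 (chr5:179614179-179634787, minus strand, 659 and 551 reads) had 16 and 6. HNRNPF (chr10:43385618-43409185, minus strand, 732 and 763 reads) had 11 and 11. HNRNPF was the one member with fewer reads in the RBFOX2 library.

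**Figure D1:**
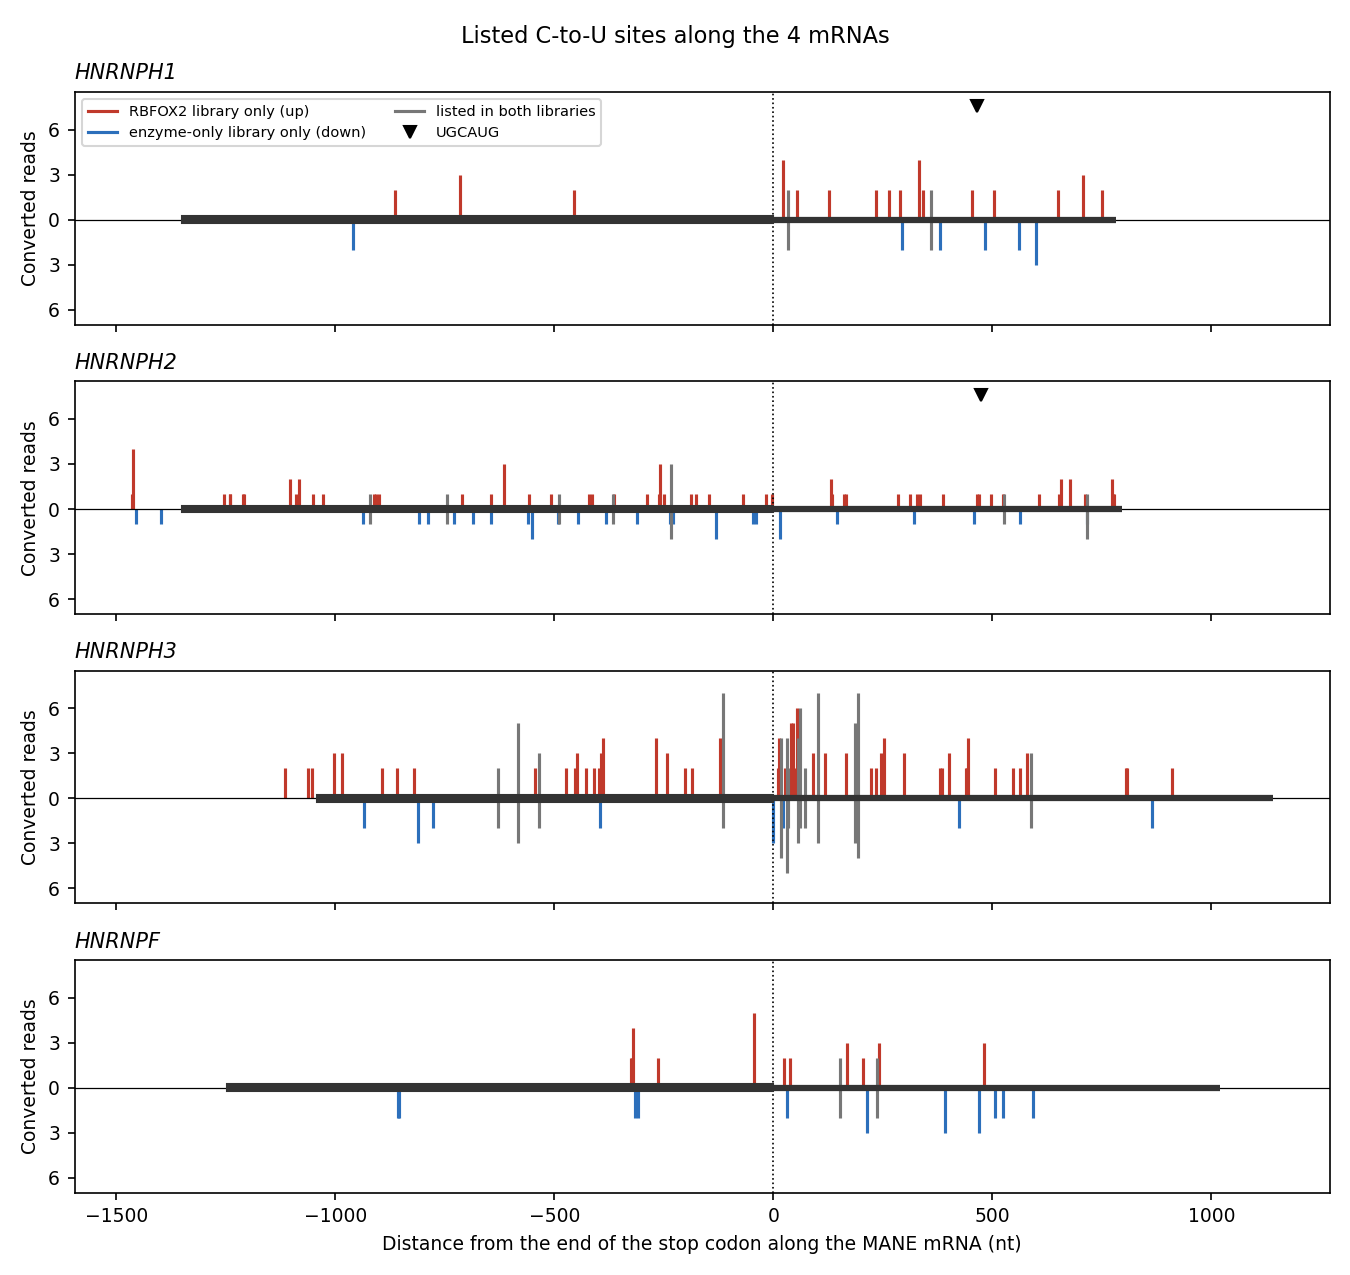
Converted reads (y axis) at each listed cytosine against its distance in nt from the end of the stop codon along the MANE mRNA (x axis; thick bar, coding sequence; thin bar, 3'UTR), with the RBFOX2 library upward, the enzyme-only library downward, positions listed in both in grey and UGCAUG as black triangles. HNRNPH3 shows a dense group of sites just past the stop codon, with up to 7 converted reads, where HNRNPF shows few sites, and neither has a triangle.

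The number of sites depends on how many converted reads a site needs to be listed. Every listed edit fraction was above 0.002 of the reads of its gene, so sites of 1 converted read were listed in HNRNPH2 alone, and the other 3 genes, with over 500 reads in both libraries, needed 2. With at least 2 converted reads in each gene, HNRNPH3 kept 50 RBFOX2 and 8 enzyme-only sites, HNRNPH1 kept 16 and 6, HNRNPF 11 and 11, and HNRNPH2 only 9 and 3. The long list of HNRNPH2 thus consisted mostly of single-read sites, and HNRNPH3 led once the minimum was equal.

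Converted reads per 1000 reads of the gene add the strength of sites, but like the site counts they depend on the minimum. They were summed over sites, so a molecule converted at several cytosines counts at each of them. The values are thus no share of edited molecules. In HNRNPH3 they came to 225 (95% Poisson interval 189 to 267) with RBFOX2 targeting against 33.8 (20.1 to 53.5) for the enzyme alone. In HNRNPH1 they were 57.7 (40.8 to 79.2) and 23.6 (12.6 to 40.4), and in HNRNPF 41.0 (27.7 to 58.5) and 32.8 (21.2 to 48.4). HNRNPH2 had 160 (124 to 204) and 91.2 (61.1 to 131) as listed, but 52.6 (33.0 to 79.7) and 18.9 (6.92 to 41.1) at the minimum of 2 converted reads that held for the other 3 genes, a setting added after seeing the data. At that equal minimum HNRNPH2 stood beside HNRNPH1, and HNRNPH3 was the highest of the 4 in the RBFOX2 library. The minimum was equal in reads but not in edit fraction. In the RBFOX2 library 2 converted reads made 0.48% in HNRNPH2 and 0.30% in HNRNPH1, a stricter cut for HNRNPH2. Over the 4 genes together the values were 112 (98.9 to 126) and 39.3 (31.4 to 48.6) as listed. Without molecular identifiers, these and all other intervals cover no more than counting error. The Poisson intervals also take conversions as independent, which was not tested for those on the same molecule.

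**Figure D2:**
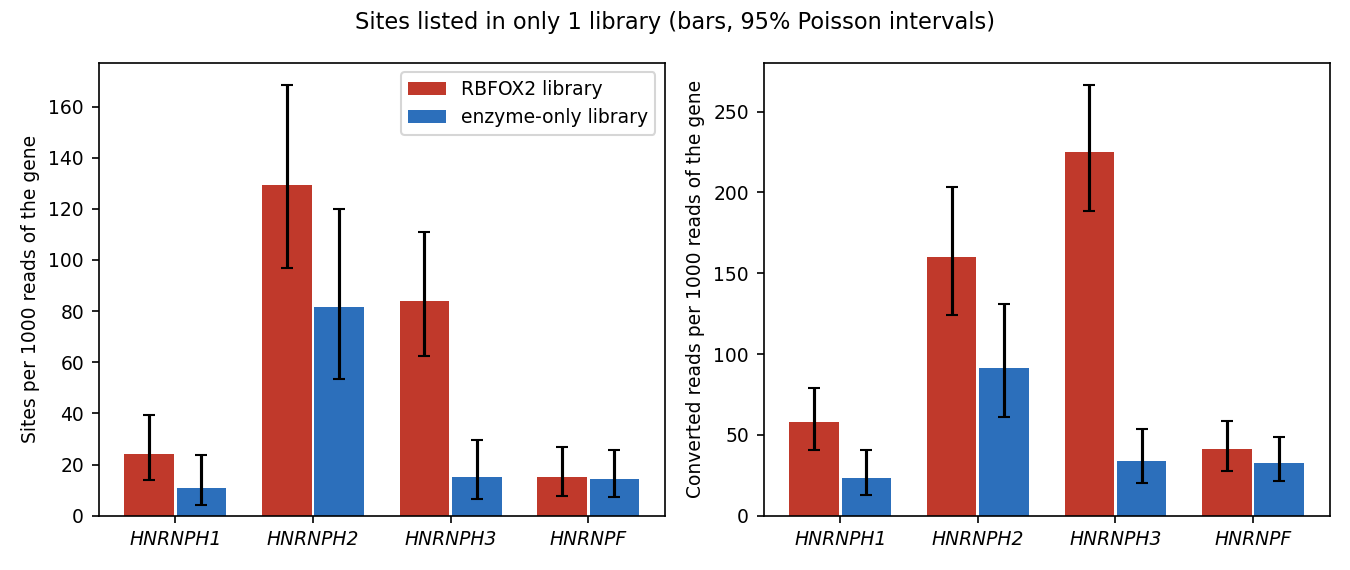
Sites (left) and converted reads summed over sites (right) per 1000 reads of the gene, for sites listed in only 1 library, in the RBFOX2 library (red) and the enzyme-only library (blue), with 95% Poisson intervals. HNRNPH3 reached 225 converted reads per 1000 against 33.8 in the enzyme-only library, the bars of HNRNPF were 41.0 and 32.8, and those of HNRNPH2 include sites of 1 converted read, without which it had 52.6 and 18.9.

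The log2 site ratio divides the sites of the RBFOX2 library by those of the enzyme-only library, with 0.5 added to each, and scales by the total number of such sites in each library. HNRNPH3 had a log2 site ratio of 2.31 (95% Clopper-Pearson interval 1.29 to 3.67), HNRNPH1 of 1.08 (-0.28 to 2.79), HNRNPH2 of 0.78 (0.09 to 1.53) and HNRNPF of -0.26 (-1.61 to 1.08). Past 2-fold towards the RBFOX2 library lay 2 of the 4, HNRNPH3 and HNRNPH1, where 16.8% of the 3604 genes with at least 20 sites did, and 0 of 4 were past 2-fold the other way, where 14.6% of those genes were. These ratios belong to the counts that chose the members, and nothing is read from the comparison with the background. Reads of the gene moved with the ratio over all genes. Among the 233 of those genes that also reached 500 reads in each library 40.3% were past 2-fold, which sets 2 of 3 members (HNRNPH1, HNRNPH3; not HNRNPF) in context, against 15.6% of the 3243 genes with fewer in both, the class of HNRNPH2 (0 of 1). The median log2 ratio was 0.64 in the deeper class and 0.09 in the shallower.

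Within its depth class HNRNPH3 ranked 28 of 233, HNRNPH1 89 of 233, HNRNPF 182 of 233 and HNRNPH2 704 of 3243. HNRNPH1 fell below 2-fold under several settings: its log2 ratio was 0.89 with sites of both libraries kept, 0.99 with 1 read minimum for both libraries, and 0.48 when all genes were held to 2 converted reads, although its own sites stayed 16 and 6. HNRNPF turned from -0.26 to 0.06 when scaled by gene reads and went to -0.86 at 2 converted reads for all genes. That last setting brought HNRNPH3 from 2.31 to 1.71 and HNRNPH2 from 0.78 to 0.58.

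**Figure D3:**
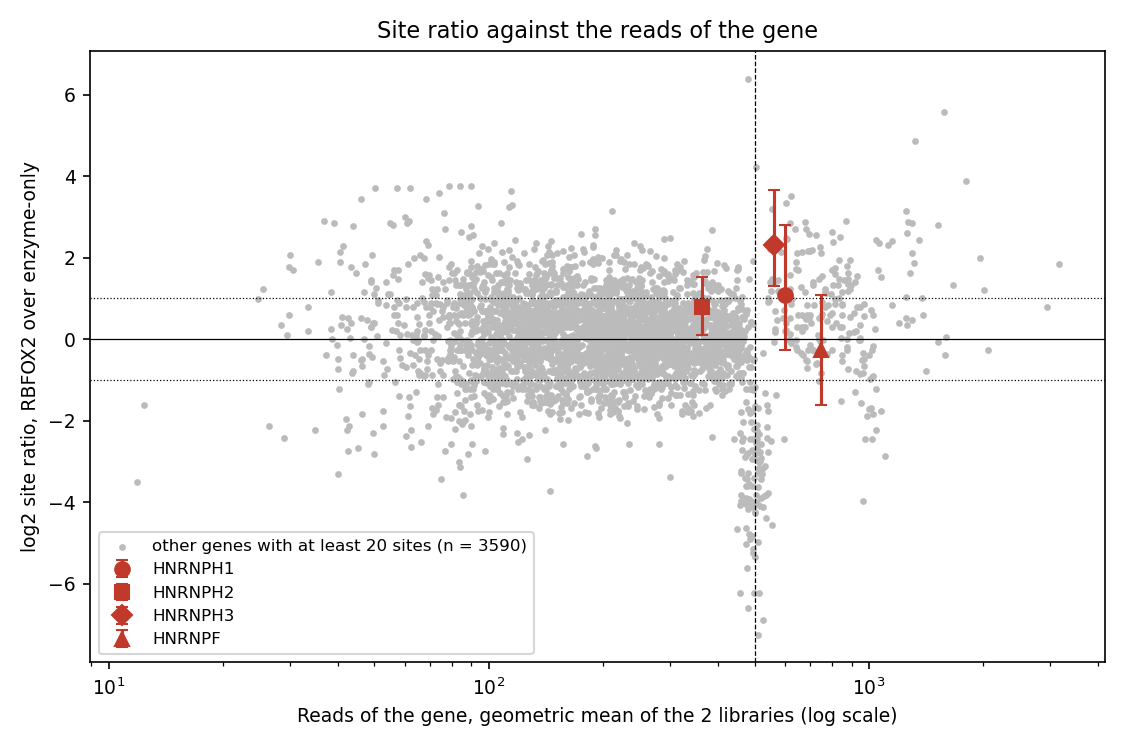
log2 site ratio (y axis) against the reads of the gene (x axis, log scale, geometric mean of the 2 libraries) for genes with at least 20 sites and reads listed in both libraries (grey) and the 4 members (red, with 95% intervals). Dotted lines mark 2-fold and the dashed line 500 reads, near which genes with over 500 reads in only 1 library fall low; all 4 members lie outside that column, with HNRNPH3 at 2.31 and HNRNPF at -0.26.

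In HNRNPH3 the sites were densest at the start of the 3'UTR, although 40 of the 50 RBFOX2 sites lay outside it. The isoform models of this gene end at 3 places, with 25 of 52 ending near chr10 position 68342268, 215 nt past the stop codon of the MANE transcript, 5 near 68342989 and 22 near 68343189. In the 215 nt that models of all 3 ends can carry, the RBFOX2 library had sites at 10 of 27 cytosines (37.0%, interval 19.4 to 57.6) against 1 of 27 (3.70%) with the enzyme alone. Past that end it had 18 of 131 (13.7%, 8.35 to 20.8) against 2 of 131 (1.53%), and in the coding sequence and 5'UTR 22 of 190 (11.6%, 7.40 to 17.0) against 5 (2.63%). The stretch next to the stop codon was the richest of these 3 in the RBFOX2 library, and its interval lay apart from that of the coding part. Fractions are given per gene, so the editing of positions that only the longer models hold is understated by an amount the tables do not show. The same holds for coding positions, since some models begin within the coding sequence, such as at chr10 position 68339438. Whether this lay behind the difference in density was not tested.

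The same stretch was also the richest in sites common to both libraries. With those kept, it held 19 RBFOX2 sites with 76 converted reads against 10 enzyme-only sites with 30, and 9 of the 14 shared sites of HNRNPH3 lay there. All other HNRNPH3 sites gave nearly the same ratio: 40 and 7 sites outside the stretch, a log2 ratio of 2.17, a check added after seeing the data. The 30 bases with the most listed cytosines in this 3'UTR began 11 nt past the stop codon (chr10:68342064-68342093, plus strand) and are printed with all 8 listed cytosines in capitals, 7 of them RBFOX2 sites and 4 enzyme-only sites.

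HNRNPH3, start of the 3'UTR: CaCcaaCataCaagtCttgaCaaCagcatC

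The strongest HNRNPH3 sites listed in the RBFOX2 library alone lay in or just beyond this window, at positions 68342106 (6 converted reads), 68342093 and 68342098 (5 each). The strongest is shown with the edited cytosine in capitals.

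HNRNPH3, position 68342106: gtctactagaCtttcttacag

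At 595 reads of the gene, 6 converted reads make an edit fraction of 1.01%. The highest fraction of any member was 1.18%, 7 converted reads, at 3 HNRNPH3 positions that the enzyme-only library listed too. In HNRNPH3, 9 of the 14 shared sites had more converted reads in the RBFOX2 library, 4 had equal numbers and 1 had fewer, 61 against 39 converted reads in sum. In the other 3 genes shared sites were few (2, 7 and 2 in HNRNPH1, HNRNPH2 and HNRNPF) and their converted reads summed to the same number in both libraries, 4, 9 and 4. Shared sites made up 63.6% of the enzyme-only list of HNRNPH3 and 21.9% of its RBFOX2 list, and keeping them brought its log2 ratio down to 1.29.

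In HNRNPH1 most listed sites lay past the stop codon, 13 of 16 RBFOX2 sites and 5 of 6 enzyme-only sites. Of its 275 coding and 5'UTR cytosines, 3 (1.09%, interval 0.226 to 3.16) were listed in the RBFOX2 library alone and 1 (0.364%) in the enzyme-only library alone. Its 3'UTR of 783 nt had 13 of 109 (11.9%, 6.51 to 19.5) and 5 of 109 (4.59%). Some HNRNPH1 models begin within the coding part, such as at position 179617060, and reads are given per gene. Coding sites are thus harder to list, and whether this lay behind the difference was not tested. HNRNPF, with the same minimum of 2 converted reads, had 5 of 386 (1.30%) and 4 of 386 (1.04%) in the coding sequence and 5'UTR, and 6 of 153 (3.92%) and 7 of 153 (4.58%) in the 3'UTR. No HNRNPF site lay farther than 593 nt past the stop codon of its 1020 nt 3'UTR, and 9 of its 17 models end near position 43386024, just beyond that last site at 43386045.

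HNRNPH2, whose coding sequence is a single exon, was edited along its whole length. Its sites took 33 of 284 (11.6%) coding and 5'UTR cytosines and 21 of 108 (19.4%, 12.5 to 28.2) 3'UTR cytosines in the RBFOX2 library, against 19 (6.69%) and 6 (5.56%, 2.07 to 11.7) in the enzyme-only library. In the first 100 nt of the HNRNPH2 3'UTR, 0 of 10 cytosines were RBFOX2 sites and 1 was an enzyme-only site. The strongest HNRNPH2 site of either library, with 4 converted reads, all from RBFOX2 targeting, lay in the 5'UTR at position 101408259.

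HNRNPH2, position 101408259: tggtcgtcgtCtaccgtctcg

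Over the 4 genes, 66 of 131 exonic RBFOX2 sites (50.4%, 41.5 to 59.2) and 21 of 50 enzyme-only sites (42.0%, 28.2 to 56.8) were annotated as 3'UTR, so the libraries overlapped in this share. Of all 3089 exonic cytosines of the 4 loci 16.5% were 3'UTR, and of the 1660 cytosines of the MANE mRNAs 31.8%. By the MANE transcript alone, a setting added after seeing the data, the shares of sites were 51.9% and 42.0%.

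Near the hexamer the shares of the 2 libraries overlapped. Of the exonic sites, 6 of 131 RBFOX2 sites (4.58%, 1.70 to 9.70) and 2 of 50 enzyme-only sites (4.0%, 0.488 to 13.7) lay within 50 nt of UGCAUG on the same strand of the genome, against 1.72% of all 3089 exonic cytosines and 1.99% of the 1660 in the MANE mRNAs. All 8 were around the 2 hexamers shown above. Around the HNRNPH1 hexamer the RBFOX2 library listed positions 179614507 and 179614458, 2 converted reads each, and the enzyme-only library 179614477, also with 2. Around the HNRNPH2 hexamer it listed 4 positions, each with 1 converted read, nearest at 4 nt, while the enzyme-only library listed 1 position, with 1 converted read, and both listed a further one. HNRNPH3, the member with the highest site ratio, had 0 of 50 sites within 50 nt, where none of its 656 exonic cytosines had the motif in reach, so this window could not have held one. The UGCAUG nearest to any HNRNPH3 site lay in an intron (chr10:68336019-68336024), 1175 nt from position 68337199, and the one nearest to position 68342106 lay past the end of the gene, 2286 nt away.

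The shorter motif GCAUG, which UGCAUG contains, lay within 50 nt of 17 of 131 RBFOX2 sites (13.0%), of 8 of 50 enzyme-only sites (16.0%), of 8.77% of the 3089 exonic cytosines and of 13.1% of the mRNA cytosines. With the genes weighted by their numbers of sites, the exonic share was 7.02% for the RBFOX2 library and 7.70% for the enzyme-only library. A run of GGG, the core of the sequences that hnRNP H and F proteins bind, lay within 20 nt of 29.8% (22.1 to 38.4) of RBFOX2 sites, 32.0% (19.5 to 46.7) of enzyme-only sites, 41.7% of the exonic and 38.7% of the mRNA cytosines. For both motifs the intervals of the libraries overlapped.

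Most listed cytosines followed A or U in every member and in both libraries. APOBEC1 favours a cytosine that follows A or U, and 117 of 131 RBFOX2 sites (89.3%, 82.7 to 94.0), 40 of 50 enzyme-only sites (80.0%, 66.3 to 90) and 25 of 25 shared sites had one of these, against 52.8% of the mRNA cytosines. HNRNPF had A or U before all of its 22 unshared sites. In the RBFOX2 library 13.9% of mRNA cytosines after A, 12.7% after U, 1.97% after G and 1.54% after C were listed, and in the enzyme-only library 4.35%, 4.80%, 1.31% and 1.23%. HNRNPH2, with its lower read minimum, held 11 of the 14 RBFOX2 sites and 8 of the 10 enzyme-only sites after G or C. Counted in either library, UCU (34.0%) and ACU (32.6%) were the triplets most often listed, and 0 of 58 CCC cytosines were, which allows a share of up to 5.17%. The ACU count includes an intronic HNRNPH2 site, at position 101408513, so its share of mRNA cytosines is slightly overstated.

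**Figure D4:**
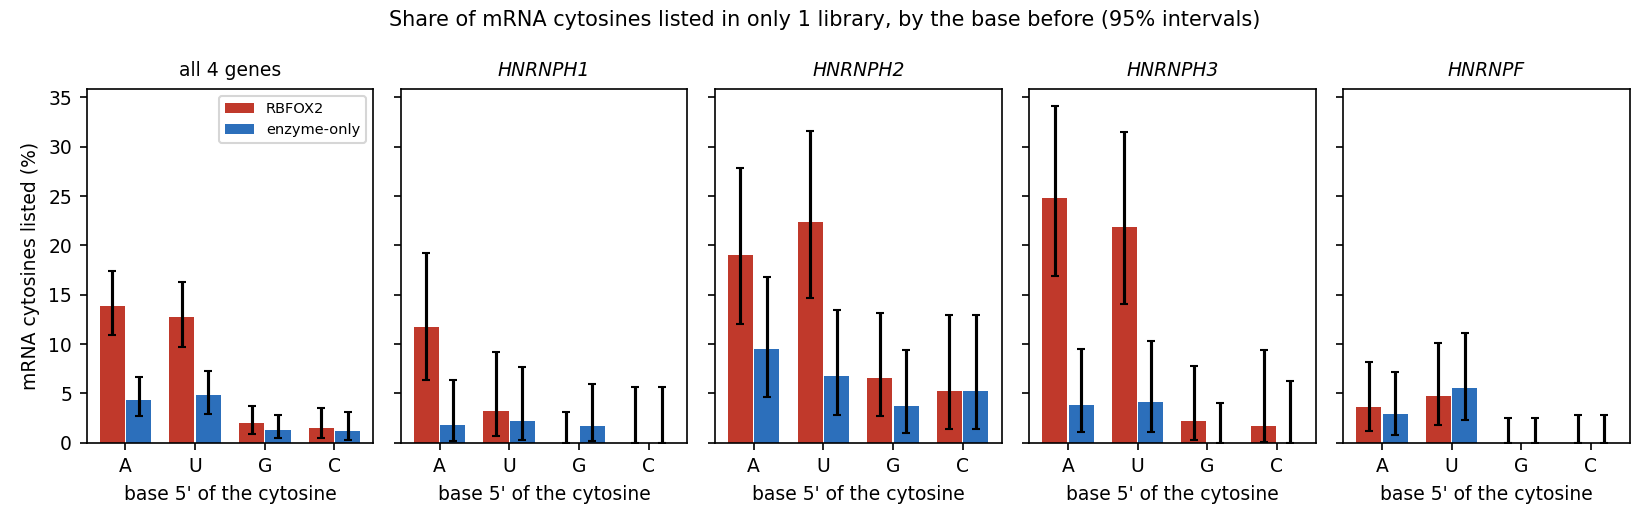
Share of the mRNA cytosines listed in only 1 library (y axis, %, 95% Clopper-Pearson intervals) by the base before the cytosine (x axis), for the 4 genes together and each gene, RBFOX2 library red, enzyme-only library blue. Cytosines after A or U reach 13.9% and 12.7% in the RBFOX2 library over the 4 genes, those after G or C under 2%.

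The copies of the family allow aligned cytosines to be compared, since their coding sequences were identical at 87.6% of aligned positions between HNRNPH1 and HNRNPH2, 77.6% between HNRNPH1 and HNRNPF, and 67.6% between HNRNPH1 and HNRNPH3. Of the 194 coding positions with a cytosine in both HNRNPH1 and HNRNPH2, 42 (21.6%) were listed in HNRNPH2, 3 in HNRNPH1 and 0 in both, and with 3 sites that base share leaves less than 1 shared site. Sites of 1 converted read were listed in HNRNPH2 alone, so its numbers here are not on the same footing as those of the other genes. HNRNPH2 and HNRNPH3 shared 6 of 96 such positions. They were 28.6% of the 21 listed in HNRNPH2, beside 18.8% of all 96 listed in HNRNPH3, and 33.3% of the 18 listed in HNRNPH3, beside 21.9% of all 96 listed in HNRNPH2. Of the 21 bases around each pair, 19, 18, 17, 13, 9 and 4 were identical, so not all 6 lay in closely matching stretches. In the 3'UTR, where HNRNPH1 and HNRNPH2 were identical at 78.7% of aligned positions, 6 of 69 aligned cytosines were listed in both. They were 42.9% of the 14 in HNRNPH1, beside 23.2% of all 69 listed in HNRNPH2, and 37.5% of the 16 in HNRNPH2, beside 20.3% of all 69 listed in HNRNPH1. Sites of either library were counted, and these base shares take no account of the base before the cytosine, with which listing varied. Whether reads of one copy were assigned to another was not tested.

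A coding stretch in which 3 members were listed at the same column of the alignment is printed for all 4, with the listed cytosines in capitals. The listed sites came from the enzyme-only library alone, 2 converted reads each, with none in HNRNPH2. The first listed cytosine of each line is at position 179620899 in HNRNPH1, 68337326 in HNRNPH3 and 43387495 in HNRNPF, and the stretches of HNRNPH1 and HNRNPH3 cross an exon junction.

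HNRNPH1: agaaattgttcagttCttctcagggttgga

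HNRNPH2: agagattgttcagttcttttcagggttgga

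HNRNPH3: ggaaatagttcagttCtttcaagggttgga

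HNRNPF: agaaattgttcagttCttCtcagggttgga

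A second stretch held a site of the RBFOX2 library in HNRNPH2 (position 101412723, 3 converted reads, 0 in the enzyme-only library) and in HNRNPH3 (position 68339159, 5 and 3 converted reads), with the listed cytosine again in capitals. Nothing was listed in these stretches of HNRNPH1 and HNRNPF.

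HNRNPH1: gaggctatgatgattacaatggctataatg

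HNRNPH2: gaggctatgatgaCtatggtggctataatg

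HNRNPH3: gaggttttgatgaCtatggtggctataata

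HNRNPF: ggggctacgaggagtacagtggcctcagtg

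A further stretch held 5 listed cytosines of HNRNPF in 30 bases, 3 of them RBFOX2 sites (8 converted reads) and 2 enzyme-only sites (4 converted reads). HNRNPH3 had 4 here (9 and 2 converted reads), HNRNPH2 had 2, both in the RBFOX2 library, and HNRNPH1 had none.

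HNRNPH1: tataattttttttcaccgctcaaccctgtg

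HNRNPH2: tataatttcttctCacctCttaatcccatg

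HNRNPH3: gctaatttCttCtCaccaCtaaatccaata

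HNRNPF: tacaaCttCttCtctCctctcaaCcctgtg

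In the 3'UTRs of HNRNPH1 and HNRNPH2, 3 of the 6 aligned pairs were listed in the RBFOX2 library in both genes. The pair farthest from the stop codon, at positions 179614254 and 101414052, had 20 of 21 bases identical, with 3 converted reads in HNRNPH1 in the RBFOX2 library alone, and 1 with RBFOX2 targeting and 2 with the enzyme alone in HNRNPH2. The pair at 179614311 and 101413994 had 2 converted reads in each gene, all in the RBFOX2 library. HNRNPF had a site at the aligned cytosine too, position 43386156, with 3 converted reads in the RBFOX2 library alone. At this column 3 members were thus listed in the RBFOX2 library only, on 2 or 3 converted reads each. Of aligned 3'UTR cytosines, HNRNPF shared 1 of 46 with HNRNPH1, 9.09% of the 11 in HNRNPH1, beside 15.2% of all 46 listed in HNRNPF. With HNRNPH2 it shared 2 of 40, 20% of the 10 in HNRNPH2, beside 10% of all 40 listed in HNRNPF.

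HNRNPH1, position 179614311: aataccaataCttaggatttt

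HNRNPH2, position 101413994: aataccaataCtttagaagtt

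HNRNPF, position 43386156: aatactaataCtgtaggaatt

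Read as uracil, 12 of 19 coding RBFOX2 sites of HNRNPH3 would leave the protein unchanged (63.2%, 38.4 to 83.7), where 36.6% of its coding cytosines would. So would 4 of its 5 coding enzyme-only sites and 3 of its 4 coding shared sites, so the share was not particular to the RBFOX2 library. The share of all coding cytosines takes no account of the base before the cytosine. In HNRNPH2 10 of 31 would (32.3%, 16.7 to 51.4), and the 41.2% of its coding cytosines lies within that interval. A new stop codon would follow at 7 of 58 RBFOX2 sites (12.1%, 4.99 to 23.3) and at 0 of 27 enzyme-only sites, which allows up to 11.1%, against 7.49% of the 921 coding cytosines. Of the 7, 5 lay in HNRNPH2, each with 1 converted read, 1 in HNRNPH1 (codon 162, CAG, 2 converted reads) and 1 in HNRNPH3 (codon 19, CGA, 3 converted reads). A further one, codon 138 (CGA) of HNRNPH3, was a shared site, with 2 converted reads per library.

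The study's editsC is the share of the cytosines of an isoform that are edited, and the study assigned reads to isoforms. Here the unshared sites listed for a gene were laid on every model whose exons hold them. No site is thus known to come from a given isoform. This form of editsC was higher in the RBFOX2 library in 52 of 52 isoform models of HNRNPH3, with a median of 15.4% (range 9.91 to 27.1) against 2.47% (1.64 to 4.65). The models ending next to the stop codon had a median of 15.2% and the longest ones 14.7%. In HNRNPH1, 85 of 86 models were higher in the RBFOX2 library, at a median of 4.97% against 1.84%, and both HNRNPH2 models were, at 13.9% against 6.42%. In HNRNPF the medians were equal at 2.11%, and 3 of 17 models, those that end nearest to the stop codon, were higher in the RBFOX2 library. Models of a gene share most of their exons, so they repeat the same sites and are not independent.

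**Figure D5:**
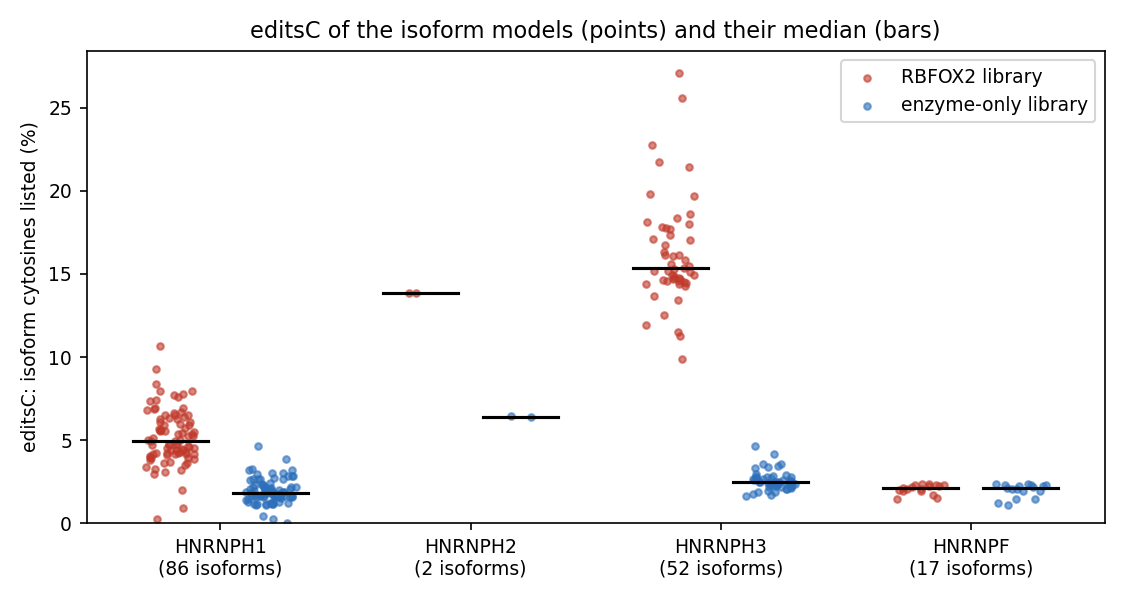
editsC, the share of each isoform model's cytosines that are listed in only 1 library (y axis, %), for every model of the 4 genes (points; bars, medians), RBFOX2 library red and enzyme-only library blue. Every HNRNPH3 model lies at 9.91% or above in the RBFOX2 library and at 4.65% or below in the enzyme-only library, whereas the medians of HNRNPF coincide.

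Other splicing regulators were read from lists for context. Of 7 other LASR subunits, 2 had at least 20 sites, and both were past 2-fold towards the RBFOX2 library, MATR3 (log2 ratio 2.10, 33 and 6 sites) and the helicase DDX5 (1.70, 17 and 4 sites), a median of 1.90. Both had over 500 reads in each library, the class in which 40.3% of genes were past 2-fold at a median of 0.64. Of 22 other hnRNP genes, 3 of them also LASR subunits, 4 had at least 20 sites, of which 3 were past 2-fold upward and 1 downward, a median of 1.35, and the 3 were of that deeper class too. The ends were HNRNPDL (2.40, 28 and 4 sites) and HNRNPUL1 (-5.62, 1 and 61 sites), whose 503 and 452 reads fall on opposite sides of 500. GRSF1, the one G-rich-binding relative with enough sites, stood at -0.19 (39 and 37 sites).

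By the numbers of sites in both libraries, genes were ranked for likeness to a member among the 777 genes with at least 500 reads in each, whatever their number of sites. HNRNPH3, which belongs to that class and has the most sites at an equal minimum, was nearest to PCNP (49 and 7 sites, distance 0.183 on the log2 scale), LYPLA1 (48 and 10), HIGD1A (39 and 8), TRA2B (40 and 7) and AHSA1 (40 and 7, distance 0.366), a choice made after the values were seen. For HNRNPH2, the member with the most sites as listed, they were LAPTM4B (40 and 18 sites), PMAIP1 (42 and 17), PSAT1 (32 and 27), G3BP1 (38 and 17) and ATP1B3 (36 and 17), at distances of 0.673 to 0.832. HNRNPH2 itself had fewer than 500 reads, so its sites were listed under a lower minimum than theirs.

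The RBFOX2 library listed 121930 sites in 10199 genes with a median of 96 reads per gene, and the enzyme-only library 103684 sites in 10182 genes with a median of 87. The median ratio of reads of a gene was 1.10 between the libraries. All 5 genes chosen to mark the HEK293 line were listed in at least 1 library, and none of 6 genes of mature kidney cells was, although the labels give kidney as the tissue. NEFM and NEFL were listed in both libraries, VIM and CDK4 in the RBFOX2 library alone, and PAX2 in the enzyme-only library alone, at 3 reads. A gene is listed only if it has an edit site, so this does not measure expression.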

How the data were processed

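Edit tables of 2 long-read libraries of HEK293T cells, RBFOX2 and enzyme-only, were used, grouped by their descriptions. Per the labels the libraries were made with an Iso-Seq kit. The study's methods name another kit and replicates not analysed here, so the tables may come from another run. Its authors aligned reads to hg38, which the labels also give, and called C-to-U edits. The deposited tables give, per site, 2 read counts (converted, and total over the gene) and their quotient, the edit fraction. A further deposited column, confidence, and isoform models without expression values were also given, and the confidence was not used. Removal of known variants was not repeated.

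The members and gene lists were chosen with earlier results of these data known. Loci were named from GENCODE 44 (bedtools 2.31.1) by largest exonic overlap on the same strand. HNRNPH2 also overlaps a readthrough gene. All member sites were cytosines of hg38. Intervals are exact Clopper-Pearson or Poisson 95% intervals (scipy 1.17.1). Coding sequences of MANE transcripts were aligned through their translation and 3'UTRs as nucleotides (mafft 7.526). Position annotation took coding sequence first. Motifs were searched on the transcribed strand. Where a share was 0, 3 counts were taken as its limit. Named genes were the members, the 5 nearest to the member with the most sites, and at most 3 per list with the highest and lowest ratio. Alternatives changed the shared sites, the read minimum, the scaling, the pseudocount, the windows and the annotation. The calculation of the ratio, its interval and the motif count was run on simulated data. Those data followed the same count model and motif search, so this checks the calculation alone. Precision is set by the members' gene reads, 318 to 763 per library.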

Additional observations from a re-analysis of the deposited data

How the results depend on the processing

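Of 77 recomputed values, 61 stayed within the interval, or within 1.5 times for counts of genes, of the value reported, none turned the direction of a gene past 2-fold, and 16 moved. With sites of both libraries kept, the log2 site ratio of HNRNPH3 was 1.29 in place of 2.31, and converted reads per 1000 gene reads of the 4 genes were 144 with RBFOX2 targeting against 65.2 for the enzyme alone. At a minimum of 2 converted reads for each gene, added after seeing the data, they were 93.2 and 28.7. A window of 200 nt around UGCAUG took in 14.5% of RBFOX2 and 16.0% of enzyme-only sites, and GCAUG within 50 nt 13.0% and 16.0%. With at least 2 converted reads, 96.5% and 92.9% had A or U before the cytosine, and 57.1% of the enzyme-only sites lay in the 3'UTR. Genes past 2-fold numbered 605 up and 525 down at a minimum of 20 sites, 1087 and 960 at 10 sites, and 119 and 108 at 50. Which cause lay behind a moved value was not tested. HNRNPH1 stayed above 2-fold only with exons alone (1.07), gene reads (1.09) or a pseudocount of 1 (1.02).

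No paired analysis was possible because each group held 1 library (the labels number them 1 for enzyme-only and 2 for RBFOX2), and no replicate was left out for that reason. Reads were given per gene, not per position, so fractions at positions held by some isoforms were not corrected. At 318 to 763 reads a site rests on 1 to 7 converted reads.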
